A study of Danio rerio with 28 samples.

Results

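The gate difference of control 6-month fish was measured in 4 libraries of 28: 2 of ccl34b.1+ cells and 2 of ccl34b.1- cells, chosen by their labels alone. The cells came from the brains of zebrafish that carried the transgenes TgBAC(ccl34b.1:eGFP) and Tg(mpeg1:DsRedx), a green reporter driven by the chemokine gene ccl34b.1 and a red one driven by the macrophage gene mpeg1. Both gates were mpeg1+, so the red reporter was shared and the green one set them apart. The control fish (2 fish, 6 months of age, treatment label NA) belonged to an injection experiment in which 4 other fish had received PBS and 3 had received E. coli. The libraries of those fish entered the scaling, the filter on low counts that sets which genes were tested, and the estimate of the spread. Each library was made from 100 cells sorted after trypsin dissociation. Both gates were sorted from every fish in 3 technical replicates, and the 1 sequenced was picked for the quality of its cDNA. The gates thus share their fish, but the labels do not say which libraries came from the same fish, and the fit has no term for it. Another experiment, with 5 untreated animals of 4 months, serves below for comparison.

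Microglia are the resident macrophages of the brain and take up dying cells and debris. Their known genes include lipid carriers, phosphatidylserine receptors and the receptor for the growth factor CSF1. The gene mpeg1 is also active in other macrophages and, in zebrafish, in further leukocytes, so an mpeg1 reporter alone does not mark microglia. Conventional dendritic cells are antigen-presenting cells known in mammals for the growth factor receptor FLT3, the transcription factors BATF3, ID2 and IRF8 and the chemokine receptor XCR1. Immediate early genes are transcribed within minutes of a stimulus, cell handling included.

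The ccl34b.1+ libraries held 3.60 and 3.57 M counts (M, mega) and the ccl34b.1- libraries 2.24 and 2.35 M. A count above 0 was seen for 12462 and 10857 genes in ccl34b.1+ libraries and for 10861 and 10222 in ccl34b.1- libraries. After thinning to 1 total of 2241693 counts these were 11779 and 10375 genes, against 10861 and 10167. The 10 most abundant genes took 35% and 33.4% of the counts in ccl34b.1+ libraries and 45.1% and 44.6% in ccl34b.1- libraries. Levels are CPM, the counts of a gene scaled by the library total after TMM adjustment of that total. They are not divided by gene length, so they compare libraries and not genes. Across genes, log2(CPM + 1) correlated with r = 0.783 between the ccl34b.1+ libraries, 0.679 between the ccl34b.1- libraries and 0.608 to 0.631 between libraries of different gates. Genes are not independent replicates, and these values describe only how alike the libraries were.

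The sort genes were examined first. For ccl34b.1 (ENSDARG00000093608), levels were 6784 and 8607 CPM in ccl34b.1+ libraries, against 65.6 and 173 CPM in ccl34b.1- libraries. The gates did not overlap, and the fitted log2 fold change was 6.01 ± 0.98 (SE; n = 2 and 2; adjusted p = 0.00308). Since ccl34b.1 drives the green reporter, this difference restates the gate, also where lists of microglia or chemokine genes count it. MPEG1 (ENSDARG00000055290) stood at 1028 and 856 CPM in ccl34b.1+ libraries, against 903 and 1532 CPM in ccl34b.1- libraries, and these ranges overlapped (adjusted p = 1). In fits that left out 1 library, the ccl34b.1 call was lost without ccl34b.1+ library 2, ccl34b.1- library 1 or ccl34b.1- library 2. Here and below, such a fit keeps 1 library in that gate, and its filter kept 14333 to 14418 genes, against 12421 in the main fit. A lost call thus does not show that it rested on that library alone.

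Of 12421 genes tested with edgeR's quasi-likelihood test, 108 passed an adjusted p of 0.05, or 0.869%. Of these, 63 (0.507% of genes tested) were higher in ccl34b.1+ cells and 45 (0.362%) were lower. Counts of called list members below stand against these shares. An unadjusted p under 0.05 was reached by 690 genes. The called differences were large: 90 of the 108 exceeded 10-fold, and the smallest was 1.77 on the log2 scale. The median size was 4.17 for genes higher in ccl34b.1+ cells and 6.76 for genes lower there, while the median log2 fold change of all genes tested was 0. Those genes include 381 with no count in the 4 control libraries, and 8478 genes passed the filter in these 4 alone, where 144 were called, 73 of them among the 108. Libraries of the gates did not overlap for any of the 108, but this was also so for 40.3% of all genes tested. With 2 libraries a side, an exact two-sided permutation test of a single gene cannot go below p = 0.333, so each call rests on the spread shared across 18 libraries. In libraries of pooled cells, fewer cells of a type and less RNA per cell cannot be told apart.

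**Figure D1:**
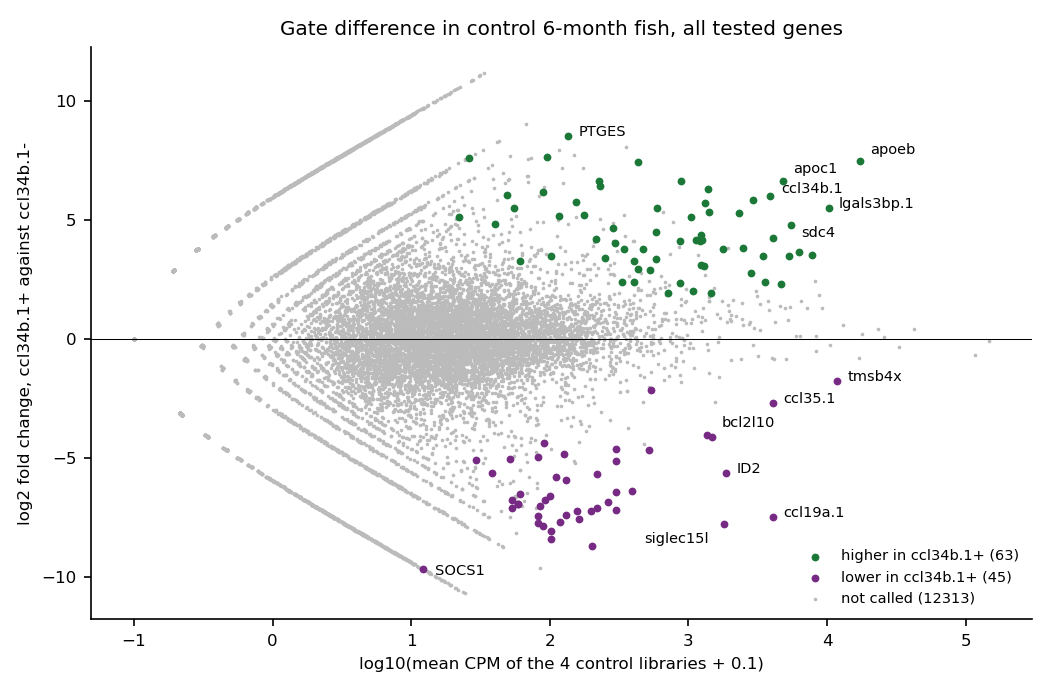
Log2 fold change, ccl34b.1+ against ccl34b.1-, of every gene tested, against log10 of the mean CPM of the 4 control libraries plus 0.1. Green points are the 63 genes called higher, purple points the 45 called lower, and grey points were not called; the grey lines at the edges are genes with 0 or few counts in 1 gate. Called genes lie away from 0 on the vertical axis, and most named points lie at high levels.

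For the genes lower in ccl34b.1+ cells, the ccl34b.1+ mean was a median of 0.907% of the ccl34b.1- mean, with a range of 0 to 29.2%. Genes higher in ccl34b.1+ cells kept a small level in the other gate: the ccl34b.1- mean was a median of 5.56% of the ccl34b.1+ mean, with a range of 0.259 to 26.5%. The libraries of a gate also differed in how closely they matched. Among the 63 genes higher in ccl34b.1+ cells, the ccl34b.1+ libraries were more than 2-fold apart for 4, with a median ratio of 1.25. Among the 45 genes lower in ccl34b.1+ cells, the ccl34b.1- libraries were more than 2-fold apart for 21, with a median ratio of 1.97. In 33 of those 45 the ccl34b.1- library 1 was the higher one.

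The 15 largest differences upward held a pair of apolipoprotein genes, whose products carry lipid. The gene apoeb had 42104 and 26210 CPM in ccl34b.1+ libraries, against 193 and 191 CPM in ccl34b.1- libraries (log2 fold change 7.47 ± 0.91, adjusted p = 0.000373). For apoc1 the levels were 9611 and 9416 CPM in ccl34b.1+ libraries, against 48.4 and 147 CPM in ccl34b.1- libraries (6.61 ± 0.59, adjusted p = 5.08e-09). Each gene was separated between the gates by far more than between the libraries of a gate. The call of apoeb was lost without ccl34b.1- library 1 (adjusted p = 0.0686) or library 2 (adjusted p = 0.0537), while apoc1 passed in all 4 fits that left out a library.

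PTGES, which makes prostaglandin E2, had 211 and 329 CPM in ccl34b.1+ libraries, against 0.489 and 0.912 CPM in ccl34b.1- libraries. The ccl34b.1- libraries held 3 counts in all, so the ratio of 384 carries a counting interval of 131 to 1864 (adjusted p = 0.000589, and 0.0581 without ccl34b.1- library 1). The tissue factor gene f3b, which starts blood clotting, had 58.8 and 45.4 CPM in ccl34b.1+ libraries, against 0.489 and 0 CPM in ccl34b.1- libraries. That was 1 count in ccl34b.1- libraries, with a ratio of 220 and an interval of 39.2 to 8720. Both were well above the floor of detection in 1 gate and at its edge in the other. The growth factor gene pdgfba stood at 541 and 357 CPM in ccl34b.1+ libraries, against 6.85 and 2.28 CPM in ccl34b.1- libraries (log2 fold change 6.61 ± 1.38, adjusted p = 0.00899, and 0.174 or 0.303 without ccl34b.1- library 1 or 2). The organic anion transporter gene slco2b1 had 994 and 733 CPM in ccl34b.1+ libraries, against 5.38 and 4.56 CPM in ccl34b.1- libraries (7.43 ± 1.39, adjusted p = 0.00495, and 0.3 or 0.247 without ccl34b.1- library 1 or 2). The remaining genes of this group were cldc1, the GTPase gene rac1a, the transcription factor genes EGR3 and ETV4, the carboxypeptidase gene CPVL, ccl34b.1, the phosphatase gene DUSP2, the adhesion gene pecam1a and the interleukin gene il1b, with log2 fold changes of 5.70 to 6.60. Of the 15, apoc1, cldc1 and DUSP2 passed in all 4 fits that left out a library, and f3b, ETV4, pecam1a and il1b in none of them. CPVL passed only without ccl34b.1+ library 2 (adjusted p = 0.0225 to 0.286 over the 4 fits).

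Among the 15 largest differences downward, siglec15l, a sialic acid-binding lectin gene, had 17.5 and 14.8 CPM in ccl34b.1+ libraries, against 4670 and 2481 CPM in ccl34b.1- libraries (log2 fold change -7.79 ± 0.63, adjusted p = 4.28e-10). The chemokine gene ccl19a.1 had 47.8 and 43.9 CPM in ccl34b.1+ libraries, against 11054 and 5206 CPM in ccl34b.1- libraries (-7.47 ± 0.57, adjusted p = 2.28e-10). Both were about 2-fold apart between the ccl34b.1- libraries, a small distance beside that between the gates. SOCS1, an inhibitor of cytokine receptor signalling, had no count in either ccl34b.1+ library, against 10.3 and 37.8 CPM in ccl34b.1- libraries (adjusted p = 0.0467). With the ccl34b.1- libraries pooled, it was at least 44.3-fold lower against a floor of 3 counts over the ccl34b.1+ libraries. Those ccl34b.1- libraries were uneven, so the bound need not hold for each of them. For sftpbb, a surfactant protein B gene, levels were 4.93 and 3.24 CPM in ccl34b.1+ libraries, against 171 and 1016 CPM in ccl34b.1- libraries (-7.17 ± 1.32, adjusted p = 0.0031). Its ccl34b.1- libraries were 5.93-fold apart, the widest ratio within that gate among the 45 genes. The other members were the receptor gene GPR37 (ENSDARG00000074563), TMEM178A, the scinderin gene scinlb, the proteoglycan gene SPOCK3, the potassium channel gene KCNK18, the calponin gene CNN3 (ENSDARG00000099510), the granulin gene grna.2, the signalling adaptor gene hcst, flt3, the adhesion gene chl1a and SYNGR3 (ENSDARG00000025034), with log2 fold changes of -7.87 to -7.00. In all 4 fits that left out a library, siglec15l, ccl19a.1 and chl1a passed; SOCS1, scinlb, SPOCK3, grna.2 and hcst passed in none. The call of sftpbb was lost without ccl34b.1+ library 1 (adjusted p = 0.173) or library 2 (adjusted p = 0.246). GPR37, KCNK18, CNN3 and flt3 passed only without ccl34b.1- library 2 (adjusted p = 0.019, 0.0292, 0.00612 and 0.0298). TMEM178A was lost without ccl34b.1+ library 1 (adjusted p = 0.368) or ccl34b.1- library 1 (adjusted p = 0.15), and SYNGR3 without ccl34b.1+ library 1 (adjusted p = 0.117) or library 2 (adjusted p = 0.0844).

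**Figure D2:**
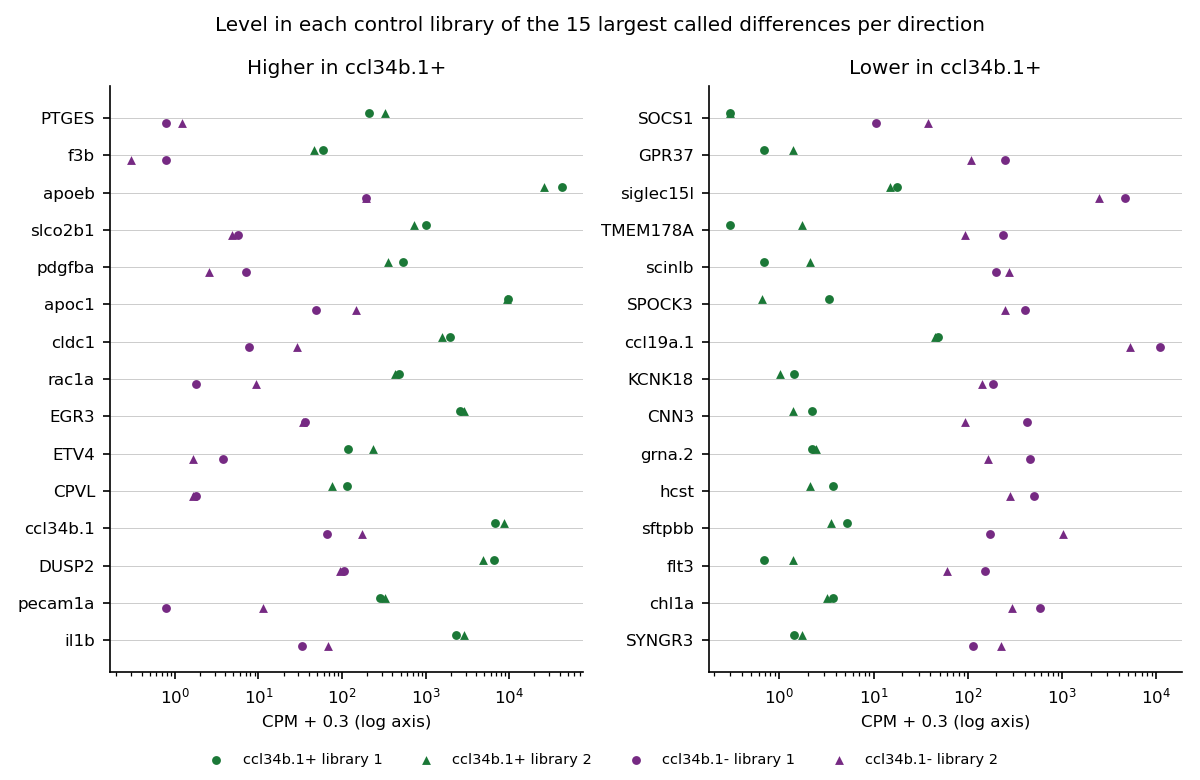
CPM plus 0.3 on a log axis in each control library for the 15 largest called differences upward (left) and downward (right) in ccl34b.1+ cells; circles are library 1 and triangles library 2, green for ccl34b.1+ and purple for ccl34b.1-. Points of the 2 colours do not overlap for any gene shown, and the purple points of sftpbb, at 171 and 1016 CPM, lie widest apart within their gate in the right panel.

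Of 21 measured microglia identity genes, 6 rose in ccl34b.1+ cells and none fell, with a median log2 fold change of 3.53 (4.22 with genes at 0 in 1 gate set to their bound and genes at or under the floor in both left out). They were the sort gene ccl34b.1, apoeb, apoc1, slco2b1 and the genes lgals3bp.1 and lgals3bp.3, whose products are secreted and bind galectin 3. The gene lgals3bp.3 had 1380 and 923 CPM in ccl34b.1+ libraries, against 6.36 and 44.2 CPM in ccl34b.1- libraries (log2 fold change 5.51 ± 0.99, adjusted p = 0.00135, and 0.0831 without ccl34b.1- library 1). For lgals3bp.1 the levels were 23482 and 16698 CPM in ccl34b.1+ libraries, against 155 and 734 CPM in ccl34b.1- libraries (5.50 ± 0.95, adjusted p = 0.00899). It passed without ccl34b.1- library 2 (adjusted p = 0.0323) and in no other fit that left out a library (adjusted p = 0.0577 to 0.212). The members that missed the threshold were mostly uneven in the same way, and those given here were chosen after their values were seen. P2RY12, a purinergic receptor gene, had 66.4 and 40.7 CPM in ccl34b.1+ libraries and 0 counts in ccl34b.1- libraries (at least 75.2-fold with libraries pooled, adjusted p = 0.122). The phosphatidylserine receptor gene havcr1 had 1425 and 1571 CPM in ccl34b.1+ libraries, against 50.4 and 49.7 CPM in ccl34b.1- libraries (adjusted p = 0.347), and the CSF1 receptor gene csf1ra 168 and 115 CPM, against 11.3 and 13.2 CPM (adjusted p = 0.408). In all, 81.0% of the 21 measured members had both ccl34b.1+ libraries above both ccl34b.1- libraries, against 22.5% of all genes tested. The ectonucleotidase gene ENTPD1 and the protease genes CTSZ and LGMN were among them. In contrast, selplg and SALL3 had log2 fold changes of -0.68 and 0.34 and were not called. MRC1 leaned the other way, with 0.379 and 0 CPM, against 0 and 8.21 CPM (log2 fold change -4.25, not called). P2RY13 had no count in ccl34b.1+ libraries, against 0 and 0.456 CPM in ccl34b.1- libraries. Every ID of SALL1, OLFML3 and GPR34 was at 0 in all 4 libraries, and these genes were not among those measured. The number of called members was 5, 4, 1 and 3 without ccl34b.1+ library 1, ccl34b.1+ library 2, ccl34b.1- library 1 and ccl34b.1- library 2, in that order, and apoc1 was the one called each time. The study may have chosen such genes on these cells, so the list's direction is not independent evidence.

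Dendritic cell genes moved in the opposite direction: of 16 measured, 8 fell in ccl34b.1+ cells and none rose, with a median log2 fold change of -6.05 (-5.69 at the bounds). Besides siglec15l and ccl19a.1 they were flt3, chl1a, BATF3, ID2, HEPACAM2 and XCR1 (ENSDARG00000054847). ID2, a regulator of lymphoid and dendritic cell development, had 78.2 and 68.4 CPM in ccl34b.1+ libraries, against 4793 and 2515 CPM in ccl34b.1- libraries (-5.64 ± 0.65, adjusted p = 1.19e-06). The adhesion gene HEPACAM2 had 2.28 and 15.8 CPM in ccl34b.1+ libraries, against 790 and 759 CPM in ccl34b.1- libraries (-6.41 ± 0.85, adjusted p = 1.88e-05). XCR1, a receptor of cross-presenting dendritic cells in mammals, had 6.45 and 10.1 CPM in ccl34b.1+ libraries, against 660 and 202 CPM in ccl34b.1- libraries (-5.70 ± 1.24, adjusted p = 0.0116). These genes were low in every ccl34b.1+ library. The receptor gene flt3 had 0.379 and 1.08 CPM in ccl34b.1+ libraries, against 152 and 59.7 CPM in ccl34b.1- libraries (-7.12 ± 1.60, adjusted p = 0.0173), and BATF3 had 1.14 and 0.72 CPM, against 160 and 73.0 CPM (-6.93 ± 1.77, adjusted p = 0.0498). Not all members shared this pattern. ZBTB46 had 14.04 and 2.161 CPM in ccl34b.1+ libraries, against 2.936 and 2.28 CPM in ccl34b.1- libraries, which overlapped (log2 fold change 1.624, not called). CCR7 was at 0 in all 4 libraries and FSCN1 at 1.518 CPM or less, and neither was among those measured. CADM1 was at 1.468 CPM or less in each library. ZBTB46, CCR7, FSCN1 and CADM1 were named after their values were seen. IRF8 stood at 326 and 320 CPM in ccl34b.1+ libraries and at 371 and 139 CPM in ccl34b.1- libraries (adjusted p = 1), and zeb2a at 396 and 568 CPM, against 16.6 and 97.1 CPM (adjusted p = 0.0932). Between 5 and 7 of the 8 stayed called in each fit that left out a library, and siglec15l, ccl19a.1, ID2, HEPACAM2 and chl1a in all 4. XCR1 and flt3 passed only without ccl34b.1- library 2 (adjusted p = 0.0137 and 0.0298), and BATF3 in no such fit (adjusted p = 0.0887 to 0.724). The list's choice of genes was made with earlier results of these data known, as for all lists, so its direction is not independent evidence. Of its called members, siglec15l, ccl19a.1, HEPACAM2 and chl1a are not among the dendritic cell genes named above as known in mammals.

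Other leukocytes were looked for in the same libraries. Of 15 measured B cell markers none was called, although 10 (66.7%, against 17.8% of all genes tested) had both ccl34b.1+ libraries below both ccl34b.1- libraries. The lectin gene cd22, with the smallest adjusted p of the list, stood the other way, with 55.4 and 128 CPM in ccl34b.1+ libraries, against 0.489 and 0.912 CPM in ccl34b.1- libraries (adjusted p = 0.0614). The immunoglobulin gene ighm had 0.379 and 0.36 CPM in ccl34b.1+ libraries, against 61.7 and 70.7 CPM in ccl34b.1- libraries (adjusted p = 0.424), and the tetraspanin gene cd37 had 0.379 and 0.72 CPM, against 158 and 47.0 CPM (adjusted p = 0.789). The summed level of the list was 7240 and 8670 CPM in ccl34b.1+ libraries, against 3910 and 3080 CPM in ccl34b.1- libraries, most of it XBP1, a gene of secretory stress in many cell types. Of the B cell receptor chains, cd79b was at 0 in all 4 libraries and cd79a had 1.52 and 5.04 CPM in ccl34b.1+ libraries, against 40.1 and 1.37 CPM in ccl34b.1- libraries. The light chain gene igic1s1 had 0 and 0.36 CPM, against 54.3 and 4.56 CPM (adjusted p = 0.722). Of 8 measured T and NK cell markers none was called, lck, ZAP70 and cd247 were at 0 in all 4 libraries, and the sum (3840 and 6950 CPM, against 1870 and 5590 CPM) was mostly CXCR4 (ENSDARG00000041959), a receptor of many leukocytes. The T cell coreceptor gene cd4-1 had 0.379 and 0 CPM in ccl34b.1+ libraries, against 0 and 30.5 CPM in ccl34b.1- libraries. GATA3, a T cell transcription factor gene, and the coreceptor gene cd8a were at 0 except in ccl34b.1- library 2 (16.9 and 9.58 CPM). Neutrophil markers summed to 135 and 87.9 CPM in ccl34b.1+ libraries and to 74.9 and 86.6 CPM in ccl34b.1- libraries, with lyz and cxcr1 at 0. The part of these cells in the fall of dendritic cell genes was not tested.

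Pan-myeloid genes changed in both directions, 2 upward and 2 downward of 35 measured, with a median log2 fold change of 0.80. In 57.1% of this list both ccl34b.1+ libraries lay above both ccl34b.1- libraries, against 22.5% of all genes tested. In 20% they lay below both, against 17.8% of all genes tested. The Fc receptor chain gene fcer1gl had 2297 and 2423 CPM in ccl34b.1+ libraries, against 72.4 and 197 CPM in ccl34b.1- libraries (4.13 ± 0.63, adjusted p = 0.000156). Its paralog fcer1g, named after its values were seen, stood the other way, with 71.3 and 35.65 CPM, against 483.5 and 90.7 CPM (-2.42 ± 0.87, adjusted p = 0.389). AIF1L, a relative of the microglial actin-binding gene AIF1, had 27.7 and 51.1 CPM in ccl34b.1+ libraries, against 1368 and 632 CPM in ccl34b.1- libraries (-4.66 ± 0.73, adjusted p = 0.00022). The granulin paralogs grna.1 and grna.2 fell (log2 fold changes -4.63 ± 0.73 and -7.23 ± 1.68), whereas the longer-known grna, named after its values were seen, was at 2574 and 2647 CPM in ccl34b.1+ libraries, against 746 and 1005 CPM in ccl34b.1- libraries (adjusted p = 0.233). Reads of such paralogs may be split between them. The signalling adaptor gene tyrobp, named after its values were seen, had no count in either ccl34b.1+ library, against 30.8 and 56.5 CPM in ccl34b.1- libraries (adjusted p = 0.108).

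Of 41 transcription factor genes, CEBPB rose, BATF3 and ID2 fell, and the median log2 fold change was 0.21. CEBPB, a factor of inflammatory macrophages, had 6380 and 5687 CPM in ccl34b.1+ libraries, against 684 and 1610 CPM in ccl34b.1- libraries (2.40 ± 0.44, adjusted p = 0.00184, but adjusted p = 0.125 without ccl34b.1- library 1). MAF (ENSDARG00000015890), named after its values were seen, lay just short of the threshold. It had 361 and 126 CPM in ccl34b.1+ libraries, against 2.45 and 0.912 CPM in ccl34b.1- libraries (adjusted p = 0.0573). The myeloid factor genes SPI1 and spi1a had log2 fold changes of 1.29 and 1.11 and were not called.

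Chemokine genes split by member: of 20 measured, ccl34b.1 rose and ccl19a.1, ccl35.1 and ccl35.2 fell. The gene ccl35.1 had 806 and 1389 CPM in ccl34b.1+ libraries, against 4072 and 10007 CPM in ccl34b.1- libraries (-2.68 ± 0.51, adjusted p = 0.00308). For ccl35.2 the levels were 124 and 197 CPM in ccl34b.1+ libraries, against 1054 and 4506 CPM in ccl34b.1- libraries (-4.12 ± 0.70, adjusted p = 0.000589). Both were uneven within the ccl34b.1- gate, and without its library 2 the calls were lost (adjusted p = 0.15 for ccl35.1 and 0.101 for ccl35.2); that of ccl35.1 was also lost without ccl34b.1+ library 1 (adjusted p = 0.101). Outside the list, cxcl11.5 and cxcl11.7 fell as well, with 1.14 and 1.80 CPM in ccl34b.1+ libraries against 28.9 and 122 CPM in ccl34b.1- libraries for cxcl11.5 (adjusted p = 0.0261, and 0.0188 to 0.476 when any 1 library was left out) and an adjusted p of 0.0353 for cxcl11.7 (0.0844 to 0.615). The neutrophil-attracting cxcl8a was at 110 and 131 CPM, against 21.5 and 31.0 CPM (adjusted p = 0.629). Those 3 genes were named after their values were seen.

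Among 25 chemoattractant receptor genes, CMKLR1 (ENSDARG00000090890) and GPR183 (ENSDARG00000010317) rose and XCR1 fell. In 48% of this list both ccl34b.1+ libraries lay below both ccl34b.1- libraries, against 17.8% of all genes tested. In 32% they lay above both, against 22.5% of all genes tested. CMKLR1, a chemerin receptor gene, had 5407 and 3809 CPM in ccl34b.1+ libraries, against 338 and 316 CPM in ccl34b.1- libraries (3.82 ± 0.56, adjusted p = 9.73e-05). GPR183, an oxysterol receptor gene, had 237 and 138 CPM, against 5.38 and 28.3 CPM (3.47 ± 0.86, adjusted p = 0.041, and 0.888 without ccl34b.1- library 1 or 0.274 without ccl34b.1+ library 1). The name CMKLR1 is carried by 3 IDs, and the others stood the other way. ENSDARG00000110362, a CMKLR1 ID named after its values were seen, had 0.759 and 1.44 CPM in ccl34b.1+ libraries, against 162 and 63.8 CPM in ccl34b.1- libraries (adjusted p = 0.0854).

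Of 40 cytokine and cytokine receptor genes, il1b, il6 and il10ra rose and il12bb and SOCS1 fell. The pyrogenic cytokine gene il1b had 2325 and 2884 CPM in ccl34b.1+ libraries, against 33.28 and 67.0 CPM in ccl34b.1- libraries (5.70 ± 0.96, adjusted p = 0.00645). Its call was lost in each fit that left out a library (adjusted p = 0.0713 to 0.363). The interleukin 6 gene il6 had 62.2 and 94.0 CPM in ccl34b.1+ libraries, against 0.489 and 5.02 CPM in ccl34b.1- libraries (4.80 ± 0.98, adjusted p = 0.00682, and 0.375 without ccl34b.1- library 1). The interleukin 10 receptor gene il10ra was the most even, with 1494 and 1794 CPM in ccl34b.1+ libraries, against 95.9 and 97.6 CPM in ccl34b.1- libraries (4.09 ± 0.58, adjusted p = 5.48e-05), and it passed in all 4 such fits. The interleukin 12 subunit gene il12bb, named after its values were seen, had 2.28 and 1.80 CPM in ccl34b.1+ libraries, against 70.0 and 327 CPM in ccl34b.1- libraries (-6.59 ± 1.52, adjusted p = 0.0224, passing without ccl34b.1- library 1 and in no other such fit). Its partner il12ba was at 2.28 and 0.36 CPM, against 60.7 and 52.4 CPM (adjusted p = 0.0735). Of 27 pattern recognition genes the Toll-like receptor adaptor gene MYD88 rose (1233 and 1692 CPM, against 319 and 254 CPM; 2.35 ± 0.55, adjusted p = 0.0243) and none fell; this call was lost without any 1 of the 4 libraries (adjusted p = 0.0792 to 0.428).

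**Figure D3:**
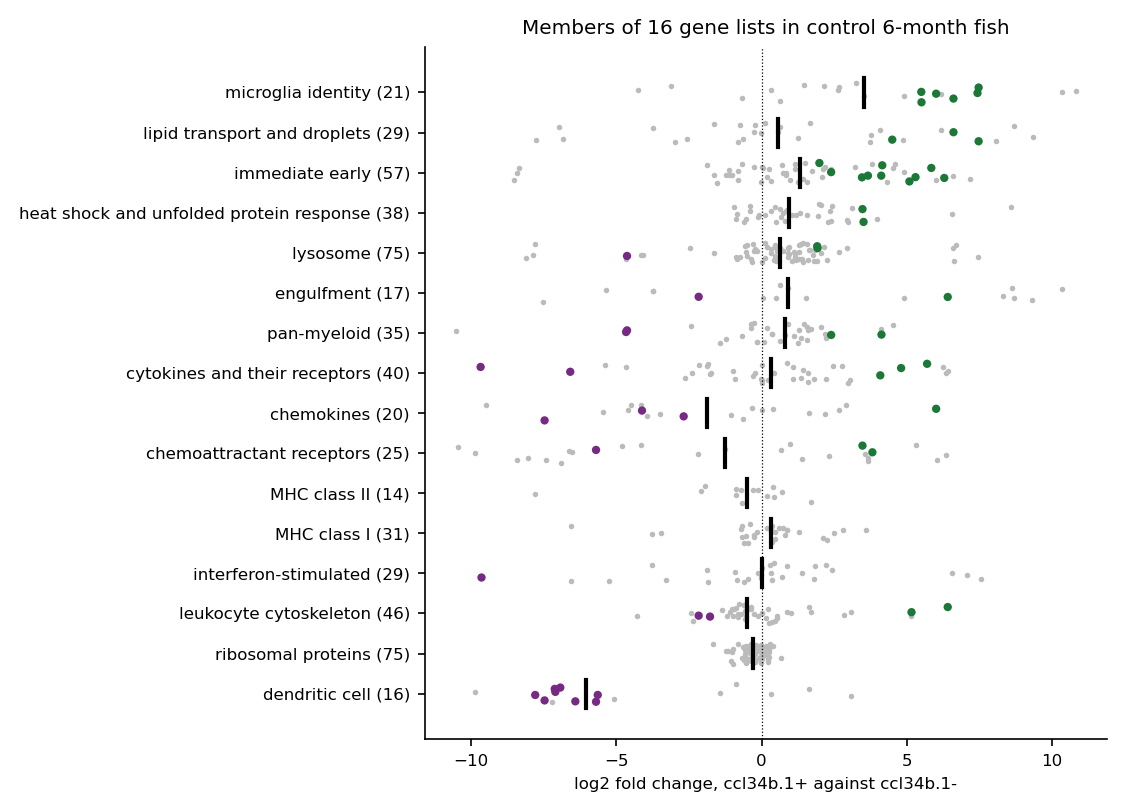
Log2 fold change, ccl34b.1+ against ccl34b.1-, of the measured members of 16 lists, whose number of measured genes stands in parentheses. Filled green and purple points were called higher or lower, grey points were not called, black bars are list medians and the dotted line is the median of all genes tested, 0; the bar of microglia identity genes stands at 3.53 and that of dendritic cell genes at -6.05.

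Of 57 measured immediate early genes, 10 rose in ccl34b.1+ cells and none fell, with a median log2 fold change of 1.31. DUSP2, a phosphatase gene of kinase signalling, had 6607 and 4880 CPM in ccl34b.1+ libraries, against 106 and 94.4 CPM in ccl34b.1- libraries (5.84 ± 0.65, adjusted p = 5.67e-07). The early growth response gene egr1 had 2222 and 2056 CPM in ccl34b.1+ libraries, against 146 and 94.4 CPM in ccl34b.1- libraries (4.15 ± 0.64, adjusted p = 0.000168). EGR3 had 2564 and 2872 CPM, against 35.7 and 33.7 CPM (6.29 ± 0.98, adjusted p = 0.00037). These were far apart between the gates and close within them, yet the EGR3 call was lost without ccl34b.1- library 1 (adjusted p = 0.0856) or library 2 (adjusted p = 0.0716). The others were egr2a, CEBPB, the AP-1 genes FOS, FOSL1, FOSL2 and JUNB (ENSDARG00000104773) and TRIB3, a pseudokinase gene of the integrated stress response. The list is thus broader than its name, and CEBPB is also counted among the pan-myeloid and transcription factor genes. JUNB had 12000 and 11393 CPM in ccl34b.1+ libraries, against 764 and 1084 CPM in ccl34b.1- libraries, and FOS had 6670 and 6010 CPM, against 494 and 662 CPM. JUNB passed only without ccl34b.1+ library 2 (adjusted p = 0.0484 to 0.304 over the 4 fits), and egr2a was lost without ccl34b.1- library 1 (adjusted p = 0.409) or library 2 (adjusted p = 0.166). DUSP2, egr1 and TRIB3 passed in all 4 fits that left out a library and FOS, FOSL1 and FOSL2 in none; the count was 6, 7, 3 and 4 without ccl34b.1+ library 1, ccl34b.1+ library 2, ccl34b.1- library 1 and ccl34b.1- library 2. In 59.6% of the list both ccl34b.1+ libraries lay above both ccl34b.1- libraries, against 22.5% of all genes tested. In 14% they lay below both, against 17.8% of all genes tested.

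Of 38 heat shock and unfolded protein response genes, 2 rose and none fell (5.26% called, against 0.869% of all genes tested), with a median log2 fold change of 0.95. Both ccl34b.1+ libraries lay above both ccl34b.1- libraries for 52.6% of them, against 22.5% of all genes tested. They lay below for 7.89%, against 17.8%. HSPA5, the chaperone of the endoplasmic reticulum, had 14382 and 14046 CPM in ccl34b.1+ libraries, against 881 and 1614 CPM in ccl34b.1- libraries (3.51 ± 0.48, adjusted p = 3.29e-05). DDIT3, a factor induced by that organelle's stress, had 13019 and 6475 CPM in ccl34b.1+ libraries, against 855 and 899 CPM in ccl34b.1- libraries (3.47 ± 0.53, adjusted p = 0.000156). Both passed in all 4 fits that left out a library. The chaperone gene HSP90B1 was at 748 and 1007 CPM, against 159 and 172 CPM (adjusted p = 0.0861), while HSP90AA1, a cytosolic chaperone gene named after its values were seen, was at 3014 and 4245 CPM, against 7766 and 5363 CPM (adjusted p = 0.796).

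**Figure D4:**
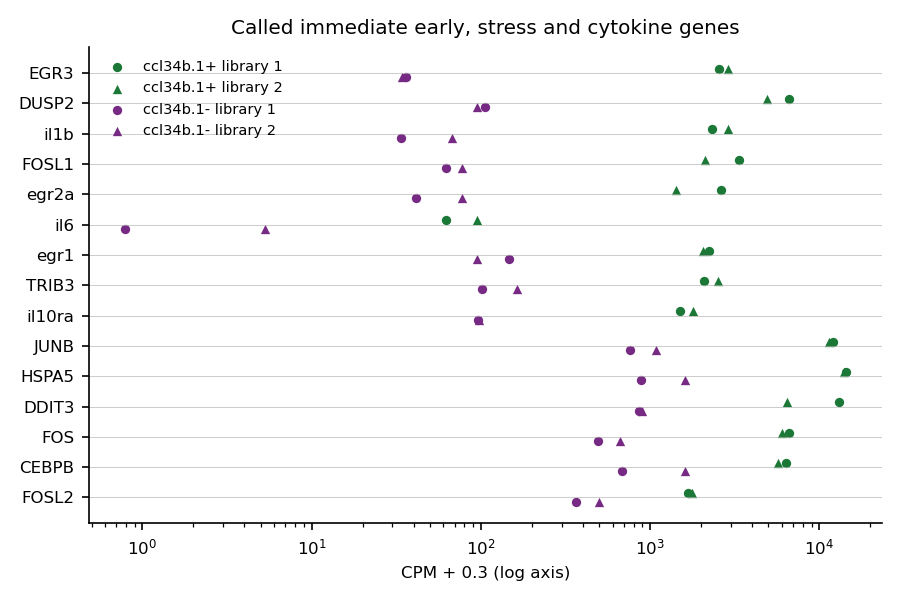
CPM plus 0.3 on a log axis in each control library for the immediate early, stress and cytokine genes called higher in ccl34b.1+ cells; green is ccl34b.1+, purple ccl34b.1-, circles library 1 and triangles library 2. Every green point lies right of both purple points of its gene, and the gap is narrowest for FOSL2, at 1670 and 1778 CPM against 367 and 501 CPM.

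Of 29 lipid transport and droplet genes, apoeb, apoc1 and plin3 rose and none fell, while the median log2 fold change was 0.57. The droplet coat gene plin3 had 991 and 1231 CPM in ccl34b.1+ libraries, against 64.1 and 34.2 CPM in ccl34b.1- libraries (4.50 ± 0.68, adjusted p = 0.000156). Of 75 lysosome genes CTSB and CD63 rose and grna.1 fell (4% called, against 0.869% of all genes tested). Both ccl34b.1+ libraries lay above both ccl34b.1- libraries for 46.7% of the lysosome genes, against 22.5% of all genes tested. They lay below for 14.7%, against 17.8%. The protease gene CTSB had 1259 and 1014 CPM in ccl34b.1+ libraries, against 219 and 378 CPM in ccl34b.1- libraries (1.93 ± 0.48, adjusted p = 0.0429), and CD63, a lysosomal membrane gene, had 2326 and 2260 CPM, against 561 and 655 CPM (1.92 ± 0.47, adjusted p = 0.0384). Neither of these was called when any 1 library was left out (adjusted p = 0.113 to 0.894 for CTSB and 0.1 to 0.462 for CD63). The 26 sterol synthesis genes had no call.

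The engulfment and cytoskeleton lists shared a pair of Rac GTPase genes that moved in opposite directions. The widely expressed rac1a had 473 and 434 CPM in ccl34b.1+ libraries, against 1.47 and 9.12 CPM in ccl34b.1- libraries (6.41 ± 1.38, adjusted p = 0.0107). The leukocyte gene rac2 had 165 and 229 CPM in ccl34b.1+ libraries, against 1106 and 663 CPM in ccl34b.1- libraries (-2.16 ± 0.54, adjusted p = 0.041). The call of rac1a held without ccl34b.1+ library 2 and in no other fit that left out a library (adjusted p = 0.0385 to 0.363), and that of rac2 in none (adjusted p = 0.0787 to 0.844). These were the called members of 17 engulfment genes. In 58.8% of the engulfment genes both ccl34b.1+ libraries lay above both ccl34b.1- libraries, against 22.5% of all genes tested. In 23.5% they lay below both, against 17.8% of all genes tested. Among 46 cytoskeleton genes SWAP70 (ENSDARG00000057286) also rose and tmsb4x, a gene of actin monomer binding, also fell. SWAP70 had 341 and 112 CPM in ccl34b.1+ libraries, against 11.7 and 0.912 CPM in ccl34b.1- libraries (5.16 ± 1.25, adjusted p = 0.0353), and was called without ccl34b.1+ library 2 (adjusted p = 0.0226) and in no other fit that left out a library (adjusted p = 0.0563 to 0.587). For tmsb4x the levels were 5176 and 5575 CPM in ccl34b.1+ libraries, against 22544 and 14232 CPM in ccl34b.1- libraries (-1.77 ± 0.37, adjusted p = 0.00857, passing without ccl34b.1- library 2 and in no other such fit). The cytoskeleton median was -0.52. Of 41 adhesion and surface genes 3 rose (CD63, pecam1a and the galectin gene lgals9l1) and 3 fell (siglec15l, HEPACAM2 and chl1a). With 1 of the 4 libraries left out, the 3 upward calls were made in none of the 4 fits (adjusted p = 0.213 to 0.701 for lgals9l1) and the 3 downward calls in all 4.

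Antigen presentation genes had no call. Of 14 MHC class II genes none passed, and their median log2 fold change was -0.49. The invariant chain gene cd74a had 52884 and 43652 CPM in ccl34b.1+ libraries, against 31190 and 41235 CPM in ccl34b.1- libraries (0.41, adjusted p = 1), and the activation marker cd83 had 940 and 1921 CPM, against 1542 and 3771 CPM (adjusted p = 0.803). Of 31 MHC class I genes none passed either. Among 10 complement genes none was called; c1qb, a chain of the first component, had 594 and 433 CPM in ccl34b.1+ libraries, against 357 and 766 CPM in ccl34b.1- libraries (adjusted p = 1), and these overlapped. The genes cd74a and c1qb were named after their values were seen. Iron and heme genes (23 measured) and cell cycle genes (30 measured) had no call, with median log2 fold changes of 1.27 and 1.85. Both ccl34b.1+ libraries lay above both ccl34b.1- libraries for 47.8% of the iron and heme genes and 43.3% of the cell cycle genes, against 22.5% of all genes tested. They lay below for 13% and 6.67%, against 17.8%. For complement genes the shares were 40% above and 0% below. For glycolysis genes (26 measured) they were 53.8% above and 3.85% below, and 3.85% were called, against 0.869% of all genes tested. HK2, a hexokinase gene, was the called member of 26 glycolysis genes (104 and 118 CPM, against 14.7 and 8.21 CPM; 3.27 ± 0.81, adjusted p = 0.0396) and lost its call without any 1 library (adjusted p = 0.103 to 0.633). SOCS1 was the called member of 29 interferon-stimulated genes. With 2 libraries a side, the absence of a call does not show that these levels were equal.

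Ribosomal protein genes (75 measured) had no call and a median log2 fold change of -0.28. Both ccl34b.1+ libraries lay below both ccl34b.1- libraries for 41.3% of them, against 17.8% of all genes tested. RPLP0, a large subunit stalk gene, had 75.9 and 161 CPM in ccl34b.1+ libraries, against 241 and 289 CPM in ccl34b.1- libraries (adjusted p = 0.789). RPL3 stood the other way, with 1116 and 1228 CPM, against 706 and 785 CPM (adjusted p = 0.796).

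Markers of brain cells were low or absent. Of 25 neuron marker IDs 22 were at 0 in all 4 libraries, and GFAP, AQP4 and SOX2 of radial glia and kdrl and flt1 of endothelium were also at 0. Oligodendrocyte markers summed to 350 and 80.7 CPM in ccl34b.1+ libraries, against 221 and 62.9 CPM in ccl34b.1- libraries, nearly all from the myelin genes mbpa and mbpb. Radial glia markers summed to 3230 and 2540 CPM in ccl34b.1+ libraries, against 415 and 437 CPM in ccl34b.1- libraries, and among them the glutamine synthetase gene GLUL (ENSDARG00000099776) had 2036 and 1168 CPM, against 131 and 89.8 CPM (adjusted p = 0.42). Endothelial and mural markers summed to 814 and 884 CPM in ccl34b.1+ libraries, against 145 and 168 CPM in ccl34b.1- libraries. Their called member of 12 was pecam1a, at 287 and 321 CPM, against 0.489 and 10.9 CPM (5.72 ± 1.44, adjusted p = 0.046, and 0.0537 to 0.768 when any 1 library was left out). The part of other brain cells in the genes higher in ccl34b.1+ cells was not tested. Red cell and thrombocyte markers were at 0.456 CPM or less in each library.

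Of the 108 called genes 59 belonged to no list. Those given here were named after their values were seen. The heparan sulfate proteoglycan gene sdc4 had 11260 and 9949 CPM in ccl34b.1+ libraries, against 303 and 463 CPM in ccl34b.1- libraries (4.79 ± 0.50, adjusted p = 1.49e-07). BZW1 (ENSDARG00000099148), a regulator of translation start, had 9356 and 6154 CPM in ccl34b.1+ libraries, against 393 and 424 CPM in ccl34b.1- libraries (4.25 ± 0.48, adjusted p = 6.96e-07). The autophagy gene VMP1 had 2358 and 2320 CPM, against 146 and 79.8 CPM (4.37 ± 0.72, adjusted p = 0.000417). In the other direction bcl2l10, a gene of the BCL2 family of cell death regulators, had 112 and 198 CPM in ccl34b.1+ libraries, against 1908 and 3210 CPM in ccl34b.1- libraries (-4.04 ± 0.66, adjusted p = 0.00036). The actin crosslinker gene ACTN1 had 5.69 and 3.24 CPM in ccl34b.1+ libraries, against 653 and 398 CPM in ccl34b.1- libraries (-6.87 ± 1.12, adjusted p = 0.00037). All 5 passed in each fit that left out a library, as did 27 of the 108 (15 higher and 12 lower), while 35 passed in none. LTA4H, which makes the attractant leukotriene B4, was also higher in ccl34b.1+ cells (532 and 582 CPM, against 24.5 and 43.3 CPM; 4.04 ± 0.84, adjusted p = 0.00787, and adjusted p = 0.0563 to 0.366 when any 1 library was left out).

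The gate difference was set beside that of the 5 untreated 4-month fish, which shared no library with it. Of the 108 genes 107 had the same sign there, which takes no account of size. For cxcl11.5 the log2 fold change was -5.65 in control and -0.31 in untreated fish. The same share over all genes tested was not computed. RCC1, a nuclear exchange factor gene, had the opposite sign. RCC1 (adjusted p = 0.0498 in control fish, called in no fit that left out a library) had 58.4 and 26.7 CPM in control ccl34b.1+ libraries, against 1.47 and 0.912 CPM in control ccl34b.1- libraries, and 10.5 ± 9.29 CPM in untreated ccl34b.1+ libraries, against 34.6 ± 34.8 CPM in untreated ccl34b.1- libraries (SD, n = 5 and 5). Genes higher in ccl34b.1+ cells had a median log2 fold change of 4.17 in control and 2.87 in untreated fish, and 56 of the 63 had the larger value in control fish, where they were chosen. EGR3, for example, differed by 6.29 in control and 3.08 in untreated fish on the log2 scale, where it stood at 2013 ± 491 CPM in ccl34b.1+ libraries, against 239 ± 179 CPM in ccl34b.1- libraries. The difference between the gate differences was tested for 14409 genes. None was called by edgeR (0%), with 674 at an unadjusted p under 0.05, while DESeq2 called 549. Among the 108 genes the lowest adjusted p of that test was 0.427, and the median SE of the difference was 1.38 on the log2 scale. Differences well above that size were not called either. Examples are pdgfba (3.60 ± 0.78, adjusted p = 0.613) and ACTN1 (6.61 ± 1.32, adjusted p = 0.427), the latter with almost no counts in untreated ccl34b.1+ libraries. The absence of a call thus does not show that the gate differences were equal. Age, experiment and depth cannot be told apart in this comparison.

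**Figure D5:**
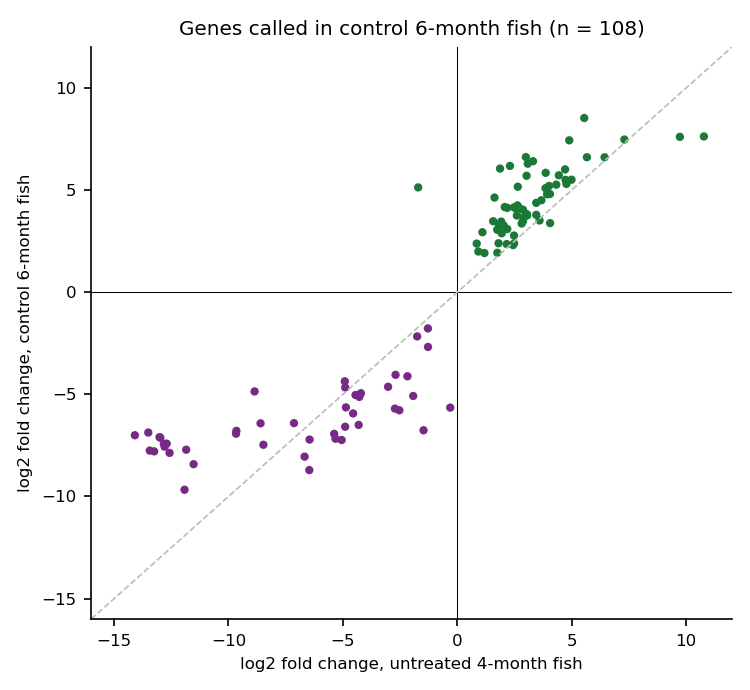
Log2 fold change, ccl34b.1+ against ccl34b.1-, of the 108 called genes in control 6-month fish (vertical axis) against the same in untreated 4-month fish (horizontal axis), with the line of equal values dashed. RCC1, at 5.13 and -1.71, is the point left of the vertical line among the green points; values beyond about -10 belong to genes with almost no counts in untreated ccl34b.1+ libraries and depend on the prior count.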

How the data were processed

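RNA was measured by Smart-seq2 (24 cycles of cDNA PCR and 12 of index PCR, no molecular identifiers), so counting intervals and floors cover counting error only. The deposited values were whole-number counts per gene, made by the authors with STAR and featureCounts on GRCz11 (danRer11) per the submitters' processing notes, which also name DESeq2; versions, annotation, strand and multi-mapped reads are not given in the sources used here, so overlapping genes and paralogs are uncertain. All 32520 IDs and the 28 libraries stood in 1 table whose columns matched sample titles. A supplied table named 29201 IDs (89.8%), many with human-style symbols.

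Counts of the 18 injection libraries were fitted as 6 groups with edgeR 4.0.16 in R 4.3.3 (TMM, filterByExpr, robust quasi-likelihood, two-sided, Benjamini-Hochberg, threshold 0.05). The filter kept 12421 genes, 381 of them at 0 counts in the 4 control libraries. The comparison with untreated fish was an interaction over 14 libraries. Levels are CPM of TMM-scaled totals, and ± after a log2 fold change is its SE. Each SE, also that of the difference from untreated fish, was derived from the test. It is the absolute log2 fold change divided by the square root of the F statistic. For genes near 0 counts in a gate it is only approximate. A gene at 0 in a gate was set against 3 counts over that gate (0.554 CPM in ccl34b.1+ and 0.708 CPM in ccl34b.1- cells). The counts of the other gate were pooled over its libraries, so the bound need not hold for each library. Ratios with 1 to 3 counts have exact 95% intervals. Libraries of a group came from separate fish, and the spread includes the spread between sorts. Scripts were tested on simulated data.

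Named genes were the sort genes, the 15 largest called differences per direction with a proper name, at least 20 CPM and no overlap, and the 3 smallest adjusted p of each of 32 lists; of 1073 listed symbols 935 (87.1%) matched. Values of some genes are not reported here. The members and lists were chosen with earlier results of these data known. Alternatives were a filter at 10 CPM or none, scaling by the size factors of DESeq2, its own test (version 1.42.0), voom from limma 3.58.1, other sets of libraries, a minimum log2 fold change of 1, thinned counts, a replicate block and leaving out each library.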

Additional observations from a re-analysis of the deposited data

How the results depend on the processing

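Against 108 calls, 101 were made with DESeq2 size factors (51 higher and 50 lower; 96 of the 108 among them), 112 with a filter at 10 CPM (98 of the 108), 97 with thinned libraries (96) and 75 against a fold threshold (75). There were 144 in the 4 control libraries alone, where 73 of the 108 remained, and 672 with voom, where 73 remained. There were 178 with no filter (100 of the 108), 456 with DESeq2 (107) and 180 with the 12 control and PBS libraries (100). Leaving out 1 library gave 38 to 61, of which 37 to 57 were among the 108 (49 and 61 without ccl34b.1+ library 1 and 2, 38 and 56 without ccl34b.1- library 1 and 2), so 1 library decides many calls. Of 56 called named genes, 21 to 32 were called then. The main fit called 49 list members. Counting every list member past the threshold, whether or not among those 49, 20 to 31 were called when 1 library was left out. Counted in the same way, there were 79 with no filter, 99 with DESeq2 and 89 with voom. Such totals do not show how many of the 49 remained. No called gene changed sign in any alternative run. Among uncalled genes SLC17A6 (ENSDARG00000041150) had no count in the 4 control libraries and a log2 fold change of 0 in the main fit. Its value with voom (-0.354) is thus not a change of sign. Leaving out 1 library gave log2 fold changes of -0.393 (without ccl34b.1+ library 1) to 7.31 for mbpa, -1.20 to 0.223 for mbpb (positive without ccl34b.1+ library 2 and, at 0.102, ccl34b.1- library 1), -9.76 to 2.88 (without ccl34b.1- library 1) for CXCR4 (ENSDARG00000057633) and -0.694 to 0.069 (without ccl34b.1- library 2) for MPEG1. The difference from untreated fish gave 2 genes with no filter and 549 with DESeq2, against 0 with edgeR. The cause of these shifts was not tested.

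With the replicate number as a block 198 genes were called (124 higher and 74 lower), 88 of them list members, and 101 of the 108 remained; the difference from untreated fish gave 0. Same-numbered control libraries deviated together with r = 0.0428, and all 9 same-numbered pairs of the 18 libraries with r = 0.0156 to 0.0749, against -0.0596 to 0.0209 between different numbers. In each gate 8 of 9 libraries correlated best with their own number (not PBS ccl34b.1+ library 4 and PBS ccl34b.1- library 3). Deviations from a group mean sum to 0, so a positive r for same numbers pushes r for different numbers down. With 2 control libraries a gate, every control pair had the same value, 0.0428 or -0.0428, by construction. Part of the tally is thus fixed in advance. The sign of r for same numbers is not fixed in the PBS and E. coli groups, where each was positive (0.0156 to 0.0749). Whether the numbers mark the same fish was not tested. Both gates came from the same fish by design, but the labels do not tie a number to a fish. The main fit therefore did not take the numbers as pairs, and the fit with the block is given beside it. With 2 libraries a gate, 100 cells each and totals of 2.24 to 3.60 M counts, the smallest called difference was 1.77 on the log2 scale. This is not a limit of detection, since larger differences without overlap were also not called. Examples in the edgeR fit are havcr1 at 4.90 (adjusted p = 0.347) and csf1ra at 3.53 (adjusted p = 0.408).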
